A study of Homo sapiens with 21 samples.

Results

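The effect of 72 h of pomalidomide on the mRNA of MM.1S cells was set against the effect of a hairpin against ARID2 in the same line, gene by gene. The comparison used 12 of the 21 libraries of the series, 3 in each of 4 groups, and 12559 of the 17691 listed genes, those with at least 1 TPM in at least 3 of the 21 libraries. TPM is the length-scaled share of a library's transcripts that comes from a gene. Each gene had a drug effect (Pom_72h minus Non-treat), a knockdown effect (ARID2_KD minus Control_KD) and the difference of these (drug effect minus knockdown effect), all on the log2(TPM + 1) scale and given with the standard error. A gene passed a test at a limma p-value under 0.05 after Benjamini-Hochberg adjustment over all 12559 genes.

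MM.1S is an established human line of multiple myeloma, a plasma cell cancer, from peripheral blood. The Pom_72h libraries came from wild-type cells given pomalidomide at 1 µM for 72 h, and the Non-treat libraries from wild-type cells that received no drug. The ARID2_KD libraries came from undrugged cells that carried a lentiviral short hairpin RNA against ARID2 for 72 h, and the Control_KD libraries from undrugged cells labelled as control knockdown, whose hairpin and time the labels do not give. With 1 untreated group for all drug times, time in drug and time in culture cannot be told apart, and nothing in the labels says how many hairpins were used. The labels call the replicates biological without naming separate cultures, so the p-values cover only how these libraries spread, which may be technical. The 2 effects share no library, and no test of the difference reuses a control.

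Pomalidomide binds cereblon, the substrate receptor of the CRL4-CRBN ubiquitin ligase, and directs it to proteins it would not otherwise take, among them the B lineage factors Ikaros (IKZF1) and Aiolos (IKZF3). ARID2 belongs to PBAF, a SWI/SNF-type chromatin remodelling complex that also holds PBRM1 and BRD7, and is itself known as a protein that cereblon takes in the presence of pomalidomide. The ligase acts on the protein, whereas a hairpin lowers the mRNA. Loss of Ikaros and Aiolos is known to lower IRF4 and MYC, transcription factors on which myeloma cells depend. The comparison asks which transcripts the drug and the loss of ARID2 mRNA share, which only 1 of them moves, and which they move in opposite directions.

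The ARID2 gene itself (GRCh38, chromosome 12, 45729665 to 45908040, plus strand) stood at 29.9, 30.4 and 28.1 TPM in the pomalidomide libraries, against 32.4, 28.4 and 28.5 TPM in the untreated libraries. It stood at 12.4, 12.2 and 12.1 TPM in the ARID2 hairpin libraries, against 26, 25.4 and 25.4 TPM in the control knockdown libraries. The hairpin libraries lay below all others, whereas the drug and untreated libraries overlapped. The log2 change was -0.011 ± 0.067 with the drug (adjusted p = 0.89) and -1.01 ± 0.067 with the hairpin (adjusted p = 8.1e-11). Of the other PBAF genes, PBRM1 had a drug value of -0.094 that did not pass, and fell by 0.39 on the log2 scale with the hairpin, at 34 ± 1.27 TPM with the ARID2 hairpin and 44.9 ± 1.3 TPM in the control knockdown (SD, n = 3 each). PHF10, the other PBAF gene listed, changed by -0.48 ± 0.062 with the drug (adjusted p = 5.9e-07), and its hairpin value of -0.10 ± 0.062 did not pass. BRD7 changed by -0.14 with the drug and 0.18 with the hairpin, a difference of -0.31 ± 0.079 (adjusted p = 0.0017). The BRD7 drug call was lost without pomalidomide library 2 or 3 or untreated library 2 or 3 (adjusted p = 0.0701 to 0.112), and its hairpin call without library 3 of either knockdown group (adjusted p = 0.0539 and 0.0709).

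Libraries of 1 group correlated at 0.993 to 0.996 over genes, and libraries of different groups at 0.908 to 0.987. The label of the line was checked against 12 plasma cell markers, all of them kept, whose TPM summed to 9518 to 9774 in the pomalidomide libraries, 11370 to 11540 in the untreated, 10630 to 11040 in the ARID2 hairpin and 12100 to 12310 in the control knockdown libraries. Markers of other lineages were low in comparison, with T and NK cell markers summing to at most 6.07 TPM, and epithelial and stromal markers to at most 22.4 TPM, in any library. The myeloid markers summed to 57.4 to 61.6 TPM with the drug against 5.17 to 9.11 TPM without it, and to 16 to 17.4 TPM with the ARID2 hairpin against 7.01 to 10.6 TPM in its control. CD68, a lysosomal protein, made up most of the myeloid sums, and 7 of the 12 myeloid markers were under 1 TPM in all 12 libraries. B cell markers summed to 79.4 to 84.8 TPM with the drug against 112 to 115 TPM without it, and erythroid markers to at most 28.9 TPM. In bulk RNA, fewer cells of a type and less RNA per cell cannot be told apart, and a table in TPM keeps no sequencing depth, so no value has a counting interval.

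The promoters shown here belong to genes on which the results turn, and each holds the DNA motif known for the gene group it stands for. They were picked for holding it. Each is the 150 bases before the RefSeq transcription start site, GRCh38.p14, written 5′ to 3′ on the gene's strand with the motif in capitals in either orientation. HMMR (chr5:163460482-163460631, plus strand) and DEPDC1 (chr1:68497083-68497232, minus strand) carry the CHR element TTTGAA of mitotic genes. PCNA (chr20:5126623-5126772, minus strand) carries an E2F element. HSPA5 (chr9:125241344-125241493, minus strand) and CRELD2 (chr22:49918484-49918633, plus strand) carry the endoplasmic reticulum stress element, ERSE. LGALS3BP (chr17:78979924-78980073, minus strand) carries an interferon-stimulated response element, ISRE.
HMMR: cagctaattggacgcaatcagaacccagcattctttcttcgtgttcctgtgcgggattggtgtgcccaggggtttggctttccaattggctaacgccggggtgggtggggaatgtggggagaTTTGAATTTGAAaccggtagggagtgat
DEPDC1: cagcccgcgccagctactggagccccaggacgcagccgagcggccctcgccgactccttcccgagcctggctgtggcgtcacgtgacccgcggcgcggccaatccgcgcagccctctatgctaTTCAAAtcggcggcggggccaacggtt
PCNA: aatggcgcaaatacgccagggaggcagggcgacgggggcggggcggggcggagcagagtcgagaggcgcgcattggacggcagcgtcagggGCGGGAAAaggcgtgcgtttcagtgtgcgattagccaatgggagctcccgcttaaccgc
HSPA5: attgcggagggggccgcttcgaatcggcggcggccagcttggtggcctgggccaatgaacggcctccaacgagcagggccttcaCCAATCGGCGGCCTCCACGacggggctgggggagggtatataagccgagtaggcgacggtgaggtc
CRELD2: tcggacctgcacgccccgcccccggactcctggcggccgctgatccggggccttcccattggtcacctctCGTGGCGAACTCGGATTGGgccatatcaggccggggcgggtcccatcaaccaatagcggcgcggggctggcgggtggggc
LGALS3BP: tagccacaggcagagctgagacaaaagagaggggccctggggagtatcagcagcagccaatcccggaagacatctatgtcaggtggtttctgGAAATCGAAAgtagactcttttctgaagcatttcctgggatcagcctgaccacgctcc

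Both treatments moved a large share of the transcriptome, and the drug moved more of it. The drug effect passed in 10017 genes (79.8% of those tested), of which 6047 rose (48.1%) and 3970 fell (31.6%). The knockdown effect passed in 7816 genes (62.2%), of which 4152 rose (33.1%) and 3664 fell (29.2%). The difference passed in 8731 genes (69.5%), 5079 of them higher (40.4%) and 3652 lower (29.1%) in the drug effect than in the knockdown effect. The SD of the log2 effect over genes was 0.90 for the drug and 0.49 for the hairpin.

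Genes were then sorted into classes by a call, which asked for a change of at least 1.5-fold beside the adjusted p. By this rule 5007 genes (39.9%) were called for the drug, 24.8% up and 15.1% down, and 2207 (17.6%) for the hairpin, 8.19% up and 9.38% down. For setting single genes in context, the 3 and 3 libraries did not overlap in 80.4% of genes for the drug and in 70.6% for the hairpin. Called in both were 1243 genes, of which 1013 moved in the same direction and 230 in opposite directions. Shared genes numbered 479 up (3.81%) and 534 down (4.25%). Opposed genes numbered 146 with the drug up and the hairpin down (1.16%), and 84 with the drug down and the hairpin up (0.669%). Split genes were called for 1 treatment only, and their difference had to pass and reach 1.5-fold. The drug had 1787 of these up (14.2%) and 964 down (7.68%), and the hairpin 255 up (2.03%) and 349 down (2.78%). The remaining 7961 genes were in no class. Shares of each list were set beside the share of all genes that the other treatment called in that direction. Genes that rose in both made up 15.4% of those called up by the drug (beside 8.19% of all genes). They made up 46.6% of those called up by the hairpin (beside 24.8%). Genes that fell in both made up 28.1% of those called down by the drug (beside 9.38% of all genes). They made up 45.3% of those called down by the hairpin (beside 15.1%). Of the genes called down by the hairpin 12.4% were called up by the drug, and of those called up by the hairpin 8.16% were called down by it. Across genes the effects correlated with Pearson's r = 0.35 and Spearman's rho = 0.33 over all 12559, a description, since genes are not independent replicates. Among the 1013 genes moved in the same direction the difference passed at 1.5-fold in 450, with the larger change in the drug for 416 of them and in the hairpin for 34.

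**Figure D1:**
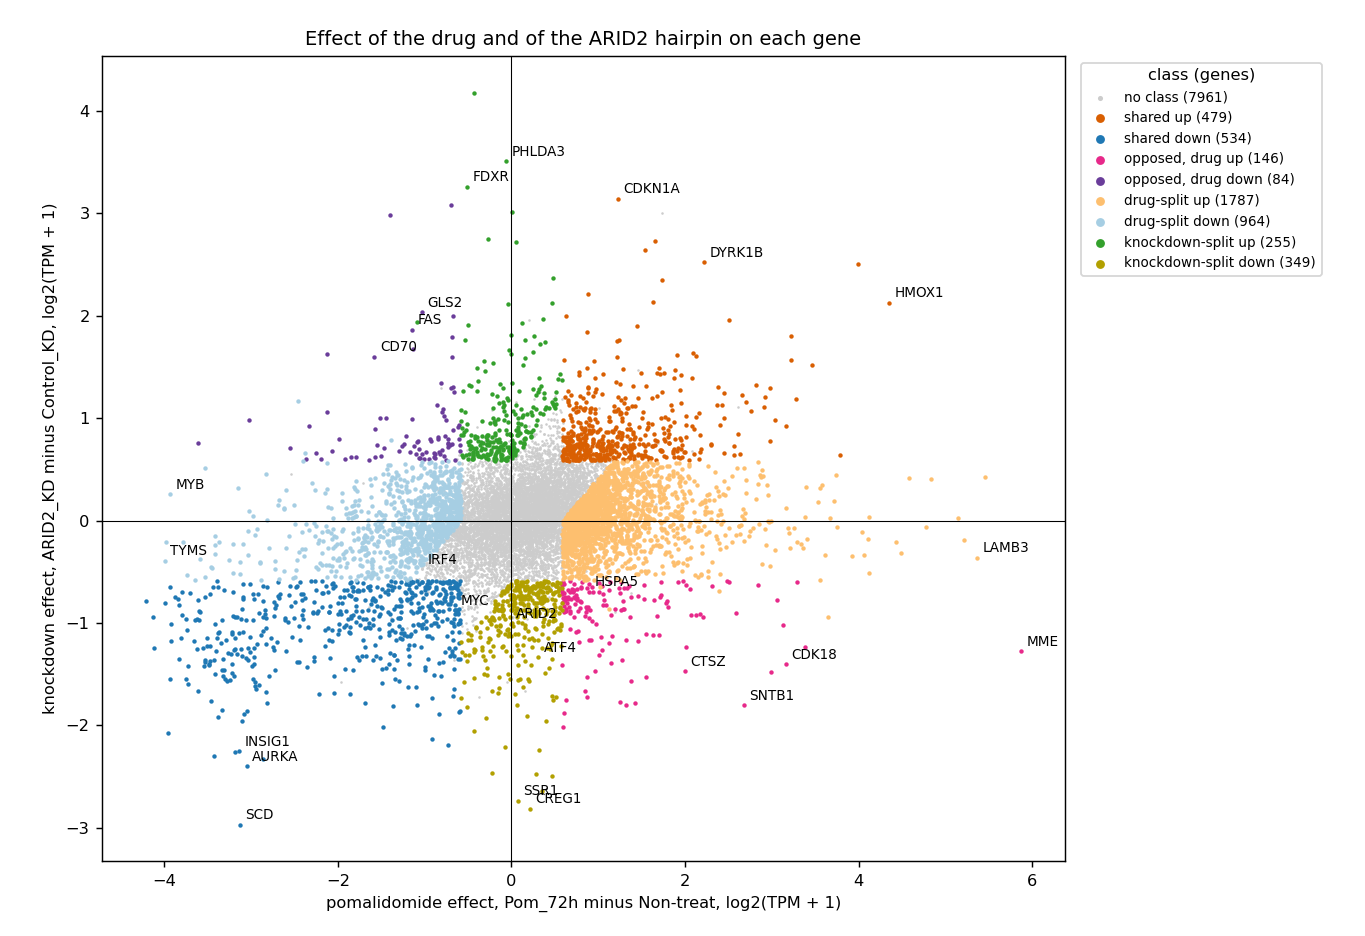
Each point is 1 of 12559 genes, with the pomalidomide effect (Pom_72h minus Non-treat, log2(TPM + 1)) on the horizontal axis and the knockdown effect (ARID2_KD minus Control_KD, same scale) on the vertical axis, coloured by class. The drug effects spread over a wider range than the hairpin effects (SD over genes 0.90 against 0.49), SCD, INSIG1 and AURKA lie low in both, and MME lies at 5.87 for the drug and -1.27 for the hairpin.

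Among the transcription factors known to sustain myeloma, MYC fell in both and IRF4 fell more with the drug. MYC stood at 299, 309 and 308 TPM in the pomalidomide libraries, against 468, 474 and 496 TPM in the untreated libraries. MYC stood at 205, 199 and 200.3 TPM in the ARID2 hairpin libraries, against 368, 367 and 377 TPM in the control knockdown libraries. In each arm the treated libraries lay below their controls without overlap. The change was -0.65 ± 0.031 with the drug and -0.88 ± 0.031 with the hairpin, and the difference of 0.23 ± 0.044 (adjusted p = 1.0e-04) was 0.10 (adjusted p = 0.0736) when libraries were scaled by the median of ratios. IRF4 stood at 233, 226 and 229 TPM in the pomalidomide libraries, against 471, 459 and 476 TPM in the untreated libraries. It stood at 452, 446 and 461 TPM in the ARID2 hairpin libraries, against 619, 636 and 639 TPM in the control knockdown libraries. The IRF4 libraries did not overlap in either arm, with changes of -1.03 ± 0.035 and -0.48 ± 0.035 and a difference of -0.55 ± 0.05 (adjusted p = 6.0e-09), although the ARID2 hairpin libraries held nearly the IRF4 level of the untreated cells and the control knockdown libraries held more than either. IRF4 is in no class, because its hairpin change is under 1.5-fold.

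The mRNA of IKZF1 and IKZF3 did not fall in either arm. IKZF1 averaged 73.5 ± 4.02 TPM with pomalidomide and 46 ± 1.62 TPM without it (SD, n = 3 each) and 41.9 ± 1.22 TPM with the ARID2 hairpin and 38 ± 1.59 TPM in the control knockdown, a drug change of 0.66 ± 0.044 and a hairpin change of 0.14 ± 0.044, both passing, though the hairpin call of IKZF1 was lost without control knockdown library 3 (adjusted p = 0.0735). IKZF3 rose by 0.21 with the drug and 0.55 with the hairpin, and the drug call was lost under median-of-ratios scaling. Of 13 genes encoding proteins known as cereblon targets in the presence of these drugs, 10 rose and 2 fell with the drug, and 7 rose and 3 fell with the hairpin. Over all genes tested, 48.1% rose and 31.6% fell with the drug, and 33.1% rose and 29.2% fell with the hairpin. The drug median of the list was 0.39, or 0.245 with median-of-ratios scaling. ZNF692 (drug 1.32, hairpin 0.42) and ZNF276 (drug 1.02, hairpin 0.30), both zinc finger factors on that list, rose in both, with the larger change in the drug. CRBN itself, the gene for cereblon, averaged 20.4 ± 0.514 TPM with pomalidomide and 16.8 ± 1.31 TPM without it, a change of 0.27 ± 0.075 (adjusted p = 0.0028) whose call was lost under median-of-ratios scaling, and its hairpin change of -0.061 did not pass.

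Genes of mitosis fell in both arms. All 53 kept genes of the G2/M list fell with the drug (median -3.19) and all fell with the hairpin (median -1.27), beside medians of 0.15 and 0.02 over all genes tested (0.11 for the difference), and 51 of them were shared down. AURKA, a kinase of the mitotic spindle poles, stood at 10.9, 8.95 and 9.19 TPM in the pomalidomide libraries, against 89.9, 83.8 and 87.7 TPM in the untreated libraries. It stood at 18.3, 19.4 and 17.1 TPM in the ARID2 hairpin libraries, against 103, 98.4 and 100.5 TPM in the control knockdown libraries. Treated libraries lay far below their controls in both arms, with changes of -3.05 ± 0.066 for the drug and -2.4 ± 0.066 for the hairpin. MAD2L1, a spindle checkpoint protein, changed by -2.86 and -2.33, and DEPDC1, another mitotic gene, by -3.19 and -2.26. HMMR, which binds spindle microtubules, averaged 5.62 ± 0.825 TPM with pomalidomide and 69.6 ± 3.32 TPM without it, and 21.6 ± 3.55 TPM with the ARID2 hairpin and 109 ± 2.54 TPM in the control knockdown (SD, n = 3 each). The fall was larger with the drug in 51 of the 53 by the test of the difference (median difference -1.88). It was widest for MYBL2, a transcription factor of the late cell cycle, among the 4 members with the smallest p: MYBL2 changed by -3.53 ± 0.041 with the drug and -0.74 ± 0.041 with the hairpin. BIRC5, the survivin gene, CDCA5, which holds sister chromatids together, and NUSAP1, a spindle protein, differed by -2.29, -2.31 and -2.13. The CHR element printed above for HMMR and DEPDC1 was found, within 250 bases before the start site on either strand, in 21 of the 45 G2/M genes with a RefSeq promoter (46.7%), in 77 of 420 shared down genes (18.3%) and in 8.54% of all 9755 tested genes with one.

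Genes of DNA replication fell further with the drug than with the hairpin. All 46 kept S phase genes fell with the drug (median -2.83), whereas 39 fell and 2 rose with the hairpin (median -0.57), and the fall was larger with the drug in 45 of the 46 (median difference -2.06). By class, 23 were shared down and 22 were called for the drug alone. TYMS, the thymidylate synthase, stood at 24, 25.1 and 23.9 TPM in the pomalidomide libraries, against 403, 408 and 395 TPM in the untreated libraries. It stood at 228, 240.0 and 241 TPM in the ARID2 hairpin libraries, against 314, 314 and 305 TPM in the control knockdown libraries. Its libraries did not overlap in either arm, and the changes were -3.99 ± 0.03 and -0.39 ± 0.03, a difference of -3.6 ± 0.042 (adjusted p = 3.3e-22). PCNA, the sliding clamp of replication, averaged 119.9 ± 5.42 TPM with pomalidomide and 728 ± 10.9 TPM without it, and 728 ± 5.95 TPM with the ARID2 hairpin and 590.3 ± 16.1 TPM in the control knockdown (SD, n = 3 each). Its changes were -2.59 ± 0.04 and 0.30 ± 0.04. MCM4, a subunit of the replicative helicase, changed by -3.37 and -0.21, and PCLAF, which binds PCNA, fell by 3.98 on the log2 scale with the drug while its hairpin value of -0.21 did not pass. E2F1, a transcription factor that drives entry into S phase, was shared down at -3.8 and -0.69. UNG, a uracil-removing repair enzyme, was shared down too, at -2.69 and -0.60. The E2F element, searched as TTTCCCGC, TTTCGCGC, TTTGCCGC or TTTGGCGC, was found in 16 of 40 S phase promoters (40%), in 8.57% of the promoters of shared down genes, in 6.83% of those of genes called down for the drug alone and in 4.49% of all.

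**Figure D2:**
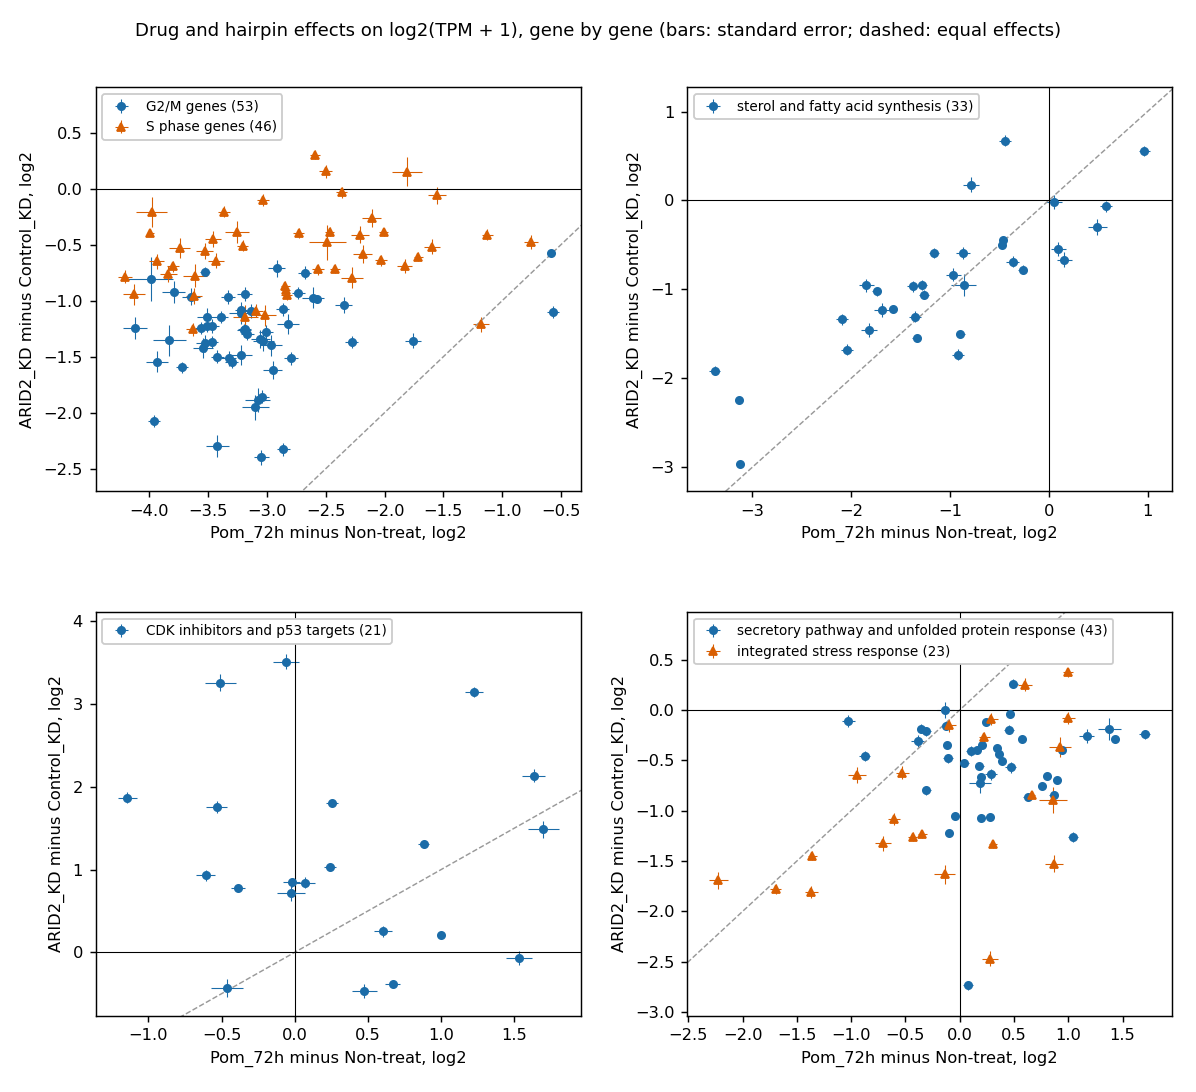
Each point is 1 gene of a list, with its drug effect (Pom_72h minus Non-treat, log2) on the horizontal and its knockdown effect (ARID2_KD minus Control_KD, log2) on the vertical axis, bars giving the standard error and the dashed line equal effects. G2/M genes sit below S phase genes on the knockdown axis (medians -1.27 and -0.57), most sterol genes lie near the dashed line, several p53 targets lie high at drug effects near 0, and most secretory genes lie below 0 on the knockdown axis and right of the dashed line.

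Most genes of lipid synthesis fell in both arms. Of 33 kept genes of sterol and fatty acid synthesis, 27 fell and 3 rose with the drug (median -0.96), and 28 fell and 2 rose with the hairpin (median -0.95). The difference was higher in 10 and lower in 17 (median -0.16), and 21 genes were shared down. The median difference was -0.29 with median-of-ratios scaling and -0.30 with quantile normalization. SCD, the desaturase that makes monounsaturated fatty acids, stood at 71.2, 68 and 70.9 TPM in the pomalidomide libraries, against 621, 606 and 634 TPM in the untreated libraries. It stood at 102, 100.5 and 106 TPM in the ARID2 hairpin libraries, against 805, 818 and 807 TPM in the control knockdown libraries. SCD ranked first among the shared down genes by the smaller of its 2 effects, with changes of -3.13 ± 0.042 and -2.97 ± 0.042. Its difference of -0.16 ± 0.059 (adjusted p = 0.021) did not pass without the second pomalidomide library, the third untreated library or the third ARID2 hairpin library. INSIG1, which holds the sterol sensor in the endoplasmic reticulum and is itself raised by the sterol-regulated factor SREBP, changed by -3.14 and -2.25. SREBF1, the gene for SREBP-1, named after its values were seen, averaged 24.8 ± 1.6 TPM with pomalidomide and 105 ± 0.38 TPM without it, and 43.7 ± 1.93 TPM with the ARID2 hairpin and 142 ± 2.04 TPM in the control knockdown (SD, n = 3 each). EBP, a sterol isomerase, changed by -1.74 with the drug and -1.02 with the hairpin, with the larger fall in the drug. The sterol response element, searched as TCACNCCAC, was found in 1 of 26 sterol gene promoters (3.85%) and in 0.892% of all.

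Most MHC class II genes, which present antigen to helper T cells, rose in each arm. Of 11 kept MHC class II genes, 10 rose with the drug (median 1.21) and 10 rose with the hairpin (median 0.92), and 8 were shared up. HLA-DRA, the class II alpha chain, stood at 1306, 1220 and 1182 TPM in the pomalidomide libraries, against 460.5, 439 and 443 TPM in the untreated libraries. It stood at 843, 868 and 815 TPM in the ARID2 hairpin libraries, against 362, 366 and 372 TPM in the control knockdown libraries. The treated libraries lay above all controls in each arm, with changes of 1.46 ± 0.037 and 1.2 ± 0.037. CD74, the invariant chain, changed by 1.16 and 0.78. Both of these genes were named after their values were seen. HLA-DMA and HLA-DMB, which load peptides onto class II, rose by 1.95 and 2.12 with the drug and by 0.79 and 1.01 with the hairpin. CIITA, the transactivator of class II genes, did not follow them in both arms: it rose by 0.71 ± 0.068 with the drug and fell by 0.18 on the log2 scale with the hairpin (adjusted p = 0.029). That hairpin call of CIITA was lost without any 1 of the ARID2 hairpin libraries or control knockdown library 1 or 2 (adjusted p = 0.0523 to 0.0861), and with mitochondrial mRNA removed (adjusted p = 0.0635). HLA-DOB, a brake on peptide loading, was opposed, with -1.14 ± 0.2 for the drug and 0.99 ± 0.2 for the hairpin.

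Other shared up genes named by rank belong to several functions. DYRK1B, a kinase known to hold cells in quiescence, stood at 13.7, 17.2 and 15.9 TPM in the pomalidomide libraries, against 3.35, 2.03 and 2.43 TPM in the untreated libraries. It stood at 15.4, 17.8 and 16.7 TPM in the ARID2 hairpin libraries, against 1.75, 2.23 and 2.21 TPM in the control knockdown libraries. DYRK1B was high in both treated groups and below 4 TPM in both controls, and its difference of -0.31 ± 0.16 did not pass (adjusted p = 0.095). HMOX1, heme oxygenase 1, averaged 508 ± 143 TPM with pomalidomide and 23.3 ± 1.15 TPM without it, and 89.2 ± 4.96 TPM with the ARID2 hairpin and 19.6 ± 0.559 TPM in the control knockdown (SD, n = 3 each), with single drug libraries at 394, 461 and 669 TPM. The chemokines CXCL10 and CXCL13 and the ubiquitin-like modifier UBD rose in both. CXCL10 rose less with the drug (1.65 ± 0.11) than with the hairpin (2.73 ± 0.11), from unlike control levels. It averaged 100 ± 2.89 TPM with pomalidomide and 31.5 ± 5 TPM without it. With the ARID2 hairpin it averaged 122 ± 10.2 TPM, against 17.7 ± 2.7 TPM in the control knockdown (SD, n = 3 each). The control knockdown stood at -0.79 relative to untreated on the log2 scale. For CXCL13 the drug change was the larger, 3.22 ± 0.16 against 1.8 ± 0.16. UBD rose by 1.73 ± 0.29 and 2.35 ± 0.29, and its difference did not pass (adjusted p = 0.19). LRRN2, a leucine-rich repeat membrane protein, rose by 2.51 and 1.96. Of the 12 kept replication-dependent histone genes, which the poly(A) selection of mRNA libraries usually leaves out, 7 rose and 1 fell with the drug. With the hairpin 7 rose and 0 fell. Of all genes tested 48.1% rose with the drug and 33.1% with the hairpin. Among the histone genes HIST1H2AC changed by 3.04 and 0.99, and HIST1H2BD by 3.22 and 1.57. Histone genes are near-identical copies, and how the authors' quantifier split their reads is not given.

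In the secretory pathway the arms moved apart. Of 43 kept genes of secretion and the unfolded protein response, 27 rose and 10 fell with the drug (median 0.24), whereas 1 rose and 38 fell with the hairpin (median -0.43). With median-of-ratios scaling the drug median was 0.087, with 22 up and 13 down. The drug effect was the higher in 36 and the lower in 3 (median difference 0.86). HSPA5, the main chaperone of the endoplasmic reticulum, stood at 1376, 1339 and 1422 TPM in the pomalidomide libraries, against 750.1, 739.5 and 734 TPM in the untreated libraries. It stood at 556, 566 and 594 TPM in the ARID2 hairpin libraries, against 896, 943 and 938 TPM in the control knockdown libraries. The libraries did not overlap in either arm, and the changes ran in opposite directions, 0.89 ± 0.031 with the drug and -0.69 ± 0.031 with the hairpin. HYOU1, another chaperone there, changed by 0.76 and -0.76, DERL3, which helps pass misfolded proteins out for degradation, by 1.04 and -1.26, and MZB1, which assists immunoglobulin secretion, by 0.80 and -0.65. On the log2 scale the control knockdown stood 0.57 above untreated for HYOU1 and 0.21 above for MZB1, beside -0.072 for DERL3. CREB3L2, a membrane-bound factor of the secretory pathway, was opposed as well (0.67 and -0.59), but its ARID2 hairpin libraries, at 65.2 ± 1.62 TPM against 98.8 ± 5.18 TPM in the control knockdown, lay above the untreated ones at 57.8 ± 1.73 TPM (SD, n = 3 each). HERPUD1, of the same degradation route, rose by 1.43 with the drug and fell by 0.28 on the log2 scale with the hairpin, whose control stood 1.08 above untreated. CRELD2, an endoplasmic reticulum protein named after its values were seen, changed by 1.17 and -0.26. Its control knockdown stood 0.39 above untreated on the log2 scale. The ERSE, searched as CCAAT and CCACG with 9 bases between them and shown above for HSPA5 and CRELD2, was found in 6 of 39 secretory promoters (15.4%), in 2 of 104 promoters of genes opposed with the drug up (1.92%) and in 0.154% of all.

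The opposed genes that ranked highest had other roles. CTSZ, the lysosomal protease cathepsin Z, stood at 79.4, 85.8 and 73.2 TPM in the pomalidomide libraries, against 20.5, 18.5 and 18.2 TPM in the untreated libraries. It stood at 8.81, 10.0 and 11.3 TPM in the ARID2 hairpin libraries, against 32.2, 27.1 and 29.4 TPM in the control knockdown libraries. The drug libraries were the highest of all 12 and the ARID2 hairpin libraries the lowest, with changes of 2.0 ± 0.084 and -1.47 ± 0.084. CDK18, a cyclin-dependent kinase, changed by 3.16 and -1.4. CLDN10, a tight junction protein, changed by 1.42 and -1.78, and TREML2, a receptor of the TREM family, by 1.55 and -1.52, with the control knockdown 1.2 above untreated on the log2 scale. SNTB1, a syntrophin of the membrane skeleton, and ZNF467, a zinc finger factor, differed between the arms by 4.48 ± 0.15 and 4.46 ± 0.14. SNTB1 averaged 10.4 ± 0.874 TPM with pomalidomide and 0.785 ± 0.0714 TPM without it, and 0.656 ± 0.126 TPM with the ARID2 hairpin and 4.79 ± 0.613 TPM in the control knockdown (SD, n = 3 each), with the control knockdown 1.69 above untreated on the log2 scale. MME, the surface peptidase CD10 of early B cells, stood at 378, 359 and 369.6 TPM in the pomalidomide libraries, against 5.68, 5.59 and 4.76 TPM in the untreated libraries. It stood at 3.65, 3.36 and 4.65 TPM in the ARID2 hairpin libraries, against 11.3, 10.0 and 10.9 TPM in the control knockdown libraries. MME had the widest difference between the arms of the genes named here, 7.14 ± 0.11 (adjusted p = 1.9e-20), most of it from the drug (5.87 ± 0.078). TNFRSF13B, the receptor TACI, and KLF2, a factor of lymphocyte homing, were opposed too, at 0.90 and -0.95 for TNFRSF13B and 0.92 and -0.98 for KLF2.

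Members of the MYC network, the partners and relatives of MYC, moved apart between the arms. Of 12 kept members, 8 rose and 2 fell with the drug, while 1 rose and 8 fell with the hairpin, and the drug effect was the higher in 10. Over all genes tested, 48.1% rose and 31.6% fell with the drug, and 33.1% rose and 29.2% fell with the hairpin. The difference was higher in 40.4% of all genes. With median-of-ratios scaling 7 members rose and 3 fell with the drug, and the drug effect was the higher in 8. MYCN, MYCL and MXD1 were opposed with the drug up. MYCN, a paralogue of MYC, averaged 16.4 ± 1.66 TPM with pomalidomide and 4.96 ± 0.804 TPM without it, and 3.5 ± 0.596 TPM with the ARID2 hairpin and 8.64 ± 0.924 TPM in the control knockdown (SD, n = 3 each). MYCL, another paralogue, changed by 1.64 and -0.78, and MXD1, an antagonist of MYC, by 1.35 and -0.63. MXD4, also an antagonist, was shared up at 1.76 and 0.78. Of 40 kept MYC target genes, 39 fell with the drug (median -0.57) and 26 fell with the hairpin (median -0.31).

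The cell death receptor FAS and the ligand CD70 were among the genes lowered by the drug and raised by the hairpin. CD70, the ligand of the receptor CD27, stood at 42.6, 41.8 and 38.3 TPM in the pomalidomide libraries, against 116, 127 and 129.7 TPM in the untreated libraries. It stood at 412, 413 and 388 TPM in the ARID2 hairpin libraries, against 132, 128 and 139 TPM in the control knockdown libraries. Control levels were close, and the treated libraries lay on opposite sides of them, at -1.58 ± 0.061 for the drug and 1.6 ± 0.061 for the hairpin. FAS stood at 6.72, 6.91 and 7.27 TPM in the pomalidomide libraries, against 17.7, 15.3 and 16.8 TPM in the untreated libraries. It stood at 66.3, 70.8 and 69.1 TPM in the ARID2 hairpin libraries, against 17.4, 18.6 and 18.4 TPM in the control knockdown libraries. FAS changed by -1.14 ± 0.066 and 1.86 ± 0.066, again from close control levels. GLS2, a mitochondrial glutaminase and p53 target, changed by -1.03 and 2.04. FHL2, a LIM domain cofactor, changed by -2.12 and 1.62, B4GALNT1, which makes the gangliosides GM2 and GD2, by -2.13 and 1.06, and CA2, a carbonic anhydrase, by -1.52 and 1.0. For CA2 the ARID2 hairpin libraries averaged 9.77 ± 0.566 TPM against 4.39 ± 0.395 TPM in the control knockdown, and overlapped the untreated libraries at 10.7 ± 1.59 TPM (SD, n = 3 each).

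**Figure D3:**
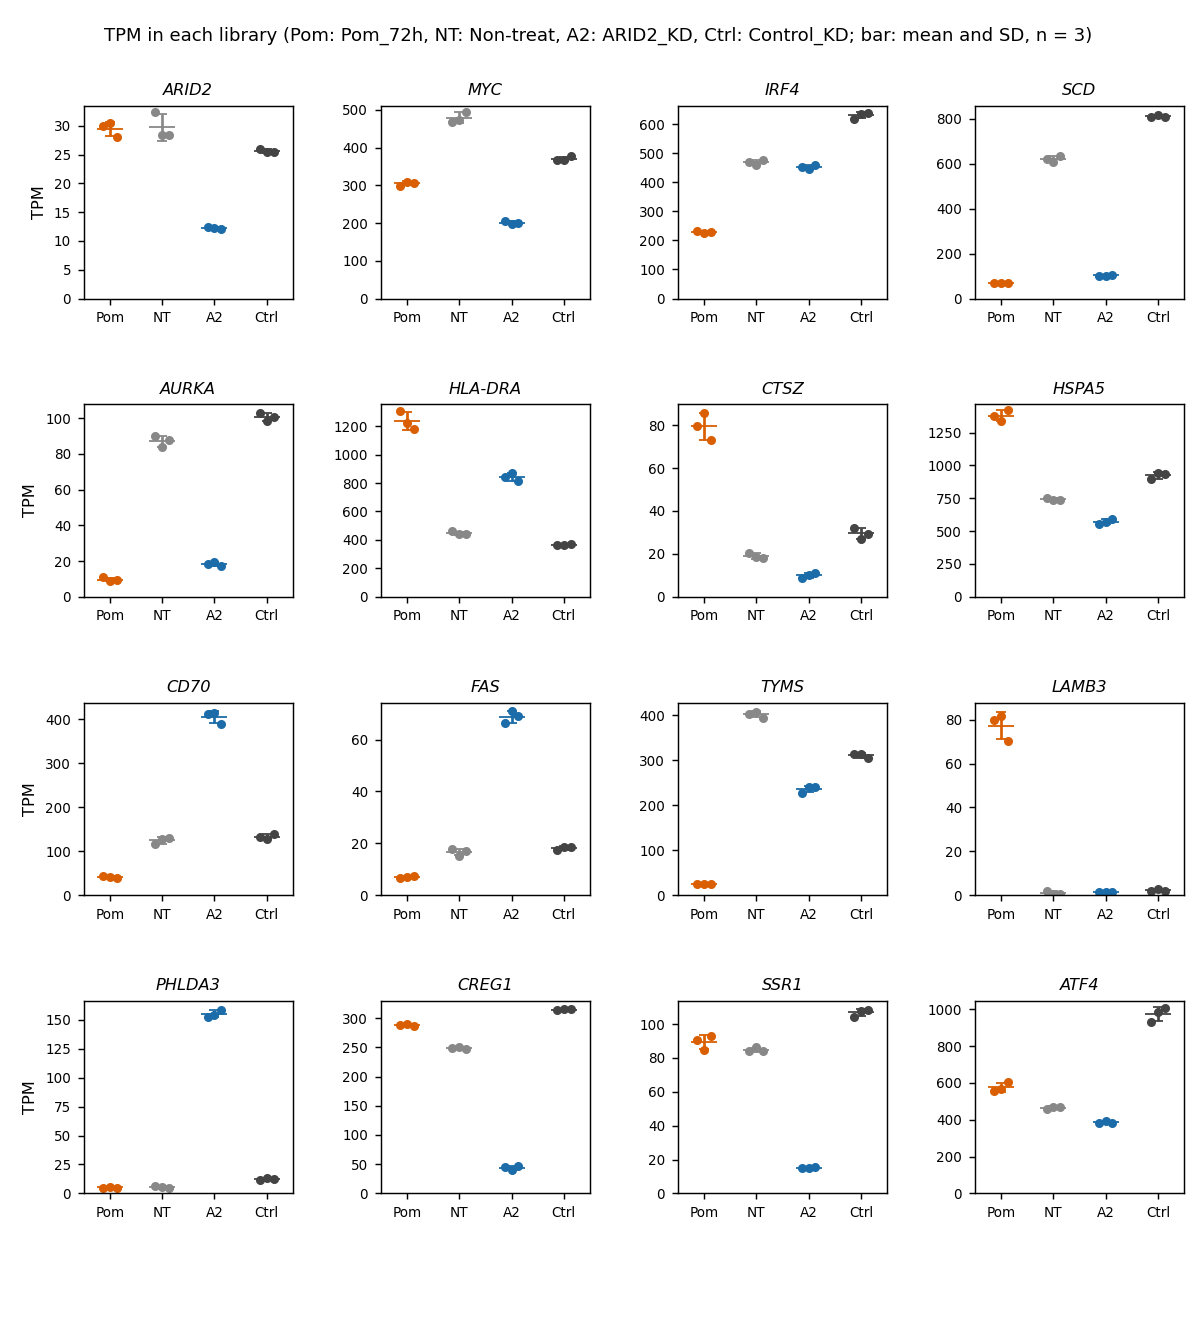
TPM of 16 genes in each of the 12 libraries, as points, with a bar for the mean and whiskers for the SD (n = 3), for Pom_72h (Pom), Non-treat (NT), ARID2_KD (A2) and Control_KD (Ctrl), each axis starting at 0. SCD and AURKA are low in both treated groups, CD70 and FAS are low with the drug and high with the hairpin, LAMB3 is high with the drug alone, PHLDA3 is high and CREG1 and SSR1 are low with the hairpin alone, and ATF4 is highest in the control knockdown.

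Most p53 target genes rose with the hairpin. Of 21 kept CDK inhibitors and p53 targets, 11 rose and 6 fell with the drug (median 0.24), and 17 rose and 3 fell with the hairpin (median 0.93). The drug median was 0.085 with median-of-ratios scaling. The drug effect was the lower in 14 and the higher in 5, and 9 were called up for the hairpin alone. PHLDA3, an inhibitor of AKT signalling, stood at 4.85, 5.84 and 4.97 TPM in the pomalidomide libraries, against 6.13, 5.51 and 4.83 TPM in the untreated libraries. It stood at 152, 155 and 159 TPM in the ARID2 hairpin libraries, against 12, 13.4 and 12.8 TPM in the control knockdown libraries. The drug and untreated libraries overlapped (-0.061 ± 0.091, adjusted p = 0.55), while the ARID2 hairpin libraries lay far above their control (3.51 ± 0.091). FDXR, the mitochondrial ferredoxin reductase, averaged 5.77 ± 0.489 TPM with pomalidomide and 8.67 ± 1.24 TPM without it, and 124 ± 6.73 TPM with the ARID2 hairpin and 12.1 ± 0.151 TPM in the control knockdown (SD, n = 3 each). DDB2, which recognises ultraviolet damage in DNA, changed by -0.53 and 1.76, and GADD45A, a growth arrest protein, by 0.25 and 1.8, the drug call of GADD45A being lost under median-of-ratios scaling. Named after their values were seen, CDKN1A, the CDK inhibitor p21, rose in both, by 1.23 ± 0.062 and 3.14 ± 0.062, and MDM2, the ubiquitin ligase of p53, changed by -0.39 and 0.78. CDKN1A stood higher in the control knockdown (65.3 ± 1.92 TPM) than in the untreated cells (23.1 ± 2.1 TPM).

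Immune ligands and signalling genes were also called up for the hairpin alone. CD80, a costimulatory ligand of T cells, stood at 7.96, 7.82 and 7.84 TPM in the ARID2 hairpin libraries, against 0.25, 0.393 and 0.406 TPM in the control knockdown libraries, and below 1 TPM in every pomalidomide and untreated library. TNFSF9, the ligand of 4-1BB, rose by 0.47 ± 0.1 with the drug and by 2.37 ± 0.1 with the hairpin. RGS1, a brake on G protein signalling, changed by -0.50 and 1.91. Of 20 kept genes of NF-kB subunits and feedback, 14 rose with the drug and 18 with the hairpin, and the sign of the median difference depended on the scaling (0.071 as deposited, -0.051 with the median of ratios). RELB and NFKB2, the subunits of the alternative pathway, were called up for the hairpin alone, with drug changes of -0.42 and -0.20 and hairpin changes of 0.80 and 0.59. NFKBIZ, a feedback regulator, rose by 2.3 with the drug and 0.75 with the hairpin. ETS1, a lymphoid transcription factor, changed by -0.54 and 0.87, with the control knockdown at -0.76 relative to untreated on the log2 scale.

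Most genes of the integrated stress response, which raises amino acid synthesis and import through ATF4, fell with the hairpin, whose control libraries stood apart from the untreated cells. Of 23 kept members, 11 rose and 10 fell with the drug (median -0.096), and 2 rose and 19 fell with the hairpin (median -1.08), the drug median being -0.25 with median-of-ratios scaling. ATF4 stood at 559, 565 and 604 TPM in the pomalidomide libraries, against 457, 470.3 and 468 TPM in the untreated libraries. It stood at 382, 394 and 384 TPM in the ARID2 hairpin libraries, against 933, 983 and 1009 TPM in the control knockdown libraries. The control knockdown libraries were the highest of all, 1.07 above the untreated on the log2 scale, so the hairpin change of -1.33 ± 0.035 was measured from a raised level. ARID2 hairpin libraries nevertheless lay below the untreated ones as well. CHAC1, a glutathione-degrading enzyme of this response, stood at 10.4, 11.3 and 10.1 TPM in the pomalidomide libraries, against 5.49, 5.26 and 5.33 TPM in the untreated libraries. It stood at 29.4, 26.6 and 29.1 TPM in the ARID2 hairpin libraries, against 78.1, 83 and 89.8 TPM in the control knockdown libraries. The control knockdown lay 3.73 above untreated on the log2 scale. CHAC1 was opposed at 0.87 and -1.53, yet its ARID2 hairpin libraries held more than the untreated ones. PSPH, the last enzyme of serine synthesis, stood at 15.3, 17.3 and 17.8 TPM in the ARID2 hairpin libraries, against 89.5, 103 and 101 TPM in the control knockdown libraries, and the control knockdown again stood 2.13 above untreated. The next 3 members, chosen after their values were seen, fell in both arms. PSAT1 and PHGDH, the other serine synthesis enzymes, changed by -1.37 and -2.22 with the drug and by -1.81 and -1.69 with the hairpin, and SLC7A5, a leucine transporter, by -1.69 and -1.78. Their hairpin changes too were measured from a raised level. The control knockdown stood above untreated by 1.99 for PSAT1, 1.49 for PHGDH and 0.78 for SLC7A5 on the log2 scale. SLC1A4, a neutral amino acid transporter, was opposed at 0.66 and -0.84.

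Most aminoacyl-tRNA synthetase genes, whose enzymes charge tRNA and many of which ATF4 raises, fell in each arm. Of 20 kept, 15 fell and 4 rose with the drug, and 14 fell and 2 rose with the hairpin, 8 of them called down for the hairpin alone. GARS averaged 112 ± 4.04 TPM with pomalidomide and 139.5 ± 2.37 TPM without it, and 124 ± 4.86 TPM with the ARID2 hairpin and 352 ± 20.8 TPM in the control knockdown (SD, n = 3 each), the control knockdown being the group that stood out. CARS changed by 0.44 and -1.25, AARS by -0.42 and -1.27, and MARS by -0.18 and -1.03. Here too the control knockdown stood above untreated, by 1.24 for CARS, 0.999 for AARS and 0.979 for MARS on the log2 scale. The CARE motif, searched as TGATGNAA, was found in 3 of 20 promoters of the integrated stress response list (15%) and in 1.34% of all. Only 2 of the 20 synthetase genes had a promoter matched by symbol, and 0 of these held the motif, so the synthetases were hardly searched.

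The same offset between the controls was counted over the classes. The control knockdown stood at least 1.5-fold above the untreated cells in 39 of the 146 genes opposed with the drug up (26.7%) and in 60 of the 349 called down for the hairpin alone (17.2%), beside 383 of all 12559 genes (3.05%). It stood at least 1.5-fold below them in 10 of the 84 genes opposed with the drug down (11.9%) and in 86 of the 964 called down for the drug alone (8.92%), beside 2.09% of all genes. In 116 of the 146 and 309 of the 349 all ARID2 hairpin libraries lay below every library of both controls, as they did in 3347 of all 12559 genes (26.6%). For the other hairpin-called classes, ARID2 hairpin libraries lay beyond both controls in 461 of 479 shared up, 511 of 534 shared down, 71 of 84 opposed with the drug down and 243 of 255 called up for the hairpin alone, beside 3443 of all genes above both controls (27.4%) and the share below them just given. These classes were chosen by the hairpin effect, so the counts are a description. The part of the control offset in these classes was not tested beyond these counts.

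CREG1, LGALS1 and SSR1 ranked first among the genes called down for the hairpin alone. CREG1, a secreted glycoprotein of the lysosome, averaged 289 ± 1.78 TPM with pomalidomide and 249 ± 1.23 TPM without it (SD, n = 3 each). It stood at 44.7, 40.7 and 46.7 TPM in the ARID2 hairpin libraries, against 314, 315 and 316 TPM in the control knockdown libraries. The ARID2 hairpin libraries alone were low, with values of 0.21 ± 0.035 for the drug and -2.81 ± 0.035 for the hairpin. SSR1, a subunit of the complex beside the protein-conducting channel of the endoplasmic reticulum, stood at 90.6, 84.7 and 93.1 TPM in the pomalidomide libraries, against 84.2, 86.3 and 84.2 TPM in the untreated libraries. It stood at 15.1, 15.1 and 15.5 TPM in the ARID2 hairpin libraries, against 104, 108 and 108 TPM in the control knockdown libraries. The drug and untreated libraries overlapped, and the hairpin change was -2.73 ± 0.043. In the 3 libraries labelled Aiolos knockdown, which share the control knockdown and in which IKZF3, the Aiolos gene, goes against that label at 129.9 ± 10.4 TPM beside 81.3 ± 2.19 TPM in the control, SSR1 averaged 25.8 ± 1.95 TPM, also low, and CREG1 averaged 471 ± 9.5 TPM, which is not (SD, n = 3). On the ARID2 hairpin's side of the control there also lay HMOX1, averaging 80.4 TPM, PHLDA3, 38.6 TPM, and PSPH, 16.5 TPM. So did the shared genes DYRK1B, averaging 12.9 TPM, UBD, 22.7 TPM, SCD, 283 TPM, INSIG1, 201 TPM, and AURKA, 49.5 TPM. The opposed genes FAS, averaging 48.6 TPM, SNTB1, 0.559 TPM, and TREML2, 3.98 TPM, lay there too. Of the stress genes, ATF4 averaged 417 TPM, CHAC1 5.35 TPM and GARS 89.4 TPM, all below the control knockdown. CTSZ, averaging 74.5 TPM, and CXCL13, 0.41 TPM, did not lie on that side. Nor did MME, averaging 165 TPM, ZNF467, 3.87 TPM, CDK18, 6.06 TPM, and FHL2, 6.11 TPM. These genes were picked from those named and are not a count. Whether a hairpin change given here is particular to ARID2 was not tested. LGALS1, galectin 1, changed by 0.47 and -2.49, and ATP6V0E1, a subunit of the proton pump of lysosomes, by 0.40 and -1.96. HID1, of dense-core secretory granules, changed by -2.24 with the hairpin, from a control knockdown level that lay 1.52 above untreated. SMARCD1, a SWI/SNF subunit shared by its several forms, rose by 0.58 with the drug and fell by 0.88 on the log2 scale with the hairpin. HK2, a hexokinase of glycolysis, fell in both and further with the hairpin (-0.73 and -2.19).

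Genes called up for the drug alone included several that were near 0 elsewhere. LAMB3, a laminin chain, stood at 79.9, 81.8 and 70.2 TPM in the pomalidomide libraries, against 2.02, 0.462 and 0.551 TPM in the untreated libraries. It stood at 1.52, 1.33 and 1.43 TPM in the ARID2 hairpin libraries, against 1.79, 2.82 and 1.86 TPM in the control knockdown libraries. The drug libraries stood alone, with a change of 5.36 ± 0.23, and the hairpin change did not pass (adjusted p = 0.17). LGALS3BP, a secreted galectin-binding protein, stood at 45.8, 52.4 and 44.4 TPM in the pomalidomide libraries, against 0.596, 0.172 and 0.18 TPM in the untreated libraries, and below 1 TPM in every ARID2 hairpin and control knockdown library. MMP9, a matrix protease, averaged 38.9 ± 5.2 TPM with the drug, and HSD11B1, which turns cortisone into cortisol, 55 ± 5.85 TPM (SD, n = 3 each). Both were below 2 TPM in the other 9 libraries. MYH7B, a myosin heavy chain, and PCDH12, a protocadherin, rose by 4.78 and 4.49 with the drug, beside hairpin values of -0.06 and -0.31. BMF, which promotes cell death by binding BCL2 proteins, averaged 534 ± 7.12 TPM with pomalidomide and 50.1 ± 2.49 TPM without it, and 62 ± 1.16 TPM with the ARID2 hairpin and 49.1 ± 0.418 TPM in the control knockdown (SD, n = 3 each). Its relatives that protect cells rose with the drug too, MCL1 by 0.75 and BCL2 by 0.90, while with the hairpin MCL1 rose by 0.12 and BCL2 fell by 0.37 on the log2 scale. For BCL2 the control knockdown stood 0.44 above untreated on that scale.

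Interferon-stimulated genes were counted in each arm. Of 45 kept, 32 rose with the drug (median 0.64) and 22 with the hairpin (median 0.26), beside 48.1% and 33.1% of all genes. Of these genes 8 were shared up and 13 called up for the drug alone, and the drug effect was the higher in 29 and the lower in 8. STAT2, a subunit of the interferon-activated factor, stood at 275, 271 and 269 TPM in the pomalidomide libraries, against 95.4, 92.1 and 93.3 TPM in the untreated libraries. It stood at 141, 144 and 144 TPM in the ARID2 hairpin libraries, against 147, 148 and 152 TPM in the control knockdown libraries. The hairpin and control libraries differed by -0.057 ± 0.03, which did not pass, and the drug change was 1.53 ± 0.03. IFI6, a mitochondrial protein induced by interferon, changed by 1.75 and 0.26, and IRF1, a transcription factor of the response, by 1.19 and 0.31. The ISRE, searched as GAAA repeated after any 2 bases and shown above for LGALS3BP, was found in 18 of 37 promoters of the list (48.6%) and in 2.57% of all. By class it was found in 3.05% of promoters of genes called up for the drug alone. The share was 4.17% for shared up genes and 7.03% for genes called up for the hairpin alone.

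Most lysosomal genes and some B cell factors rose with the drug. Of 35 kept lysosome genes, 25 rose and 10 fell with the drug (median 0.44, or 0.28 with median-of-ratios scaling). With the hairpin 12 rose and 12 fell. Of all genes tested 48.1% rose and 31.6% fell with the drug. GRN, progranulin, averaged 584 ± 33.6 TPM with pomalidomide and 105 ± 6.12 TPM without it, and 124 ± 4.43 TPM with the ARID2 hairpin and 137 ± 5.63 TPM in the control knockdown (SD, n = 3 each). CTSB, the protease cathepsin B, changed by 1.78 with the drug, and its hairpin value of 0.024 did not pass. BACH2, a factor of B cells before the plasma cell stage, rose by 1.89 with the drug and 0.28 with the hairpin. ITGB7, an integrin chain, averaged 20550 ± 1089 TPM with pomalidomide and 8739 ± 156 TPM without it, and 7625 ± 256 TPM with the ARID2 hairpin and 9485 ± 129.7 TPM in the control knockdown. CORO1B, a coronin that binds actin filaments, rose by 3.92 with the drug and fell by 0.35 on the log2 scale with the hairpin, whose control stood 0.57 above untreated.

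Among genes called down for the drug alone, MYB, a transcription factor of proliferating blood cells, stood at 0.791, 0.977 and 0.734 TPM in the pomalidomide libraries, against 27.1, 27.5 and 26.2 TPM in the untreated libraries. It stood at 15.2, 15.1 and 15.4 TPM in the ARID2 hairpin libraries, against 13, 12.7 and 12.2 TPM in the control knockdown libraries. The drug libraries lay below 1 TPM, and the change was -3.93 ± 0.087 beside a hairpin value of 0.26 ± 0.087 (adjusted p = 0.015), a hairpin call lost without control knockdown library 3 (adjusted p = 0.0533). SLC27A2, a fatty acid transporter, CBLN2, a cerebellin, and SSBP4, a single-stranded DNA binding protein, differed between the arms by -3.26, -3.28 and -3.46. The actin genes ACTB and ACTG1 fell by 1.48 and 1.99 on the log2 scale with the drug, beside falls of 0.16 and 0.37 with the hairpin. DPF3, a SWI/SNF subunit, fell by 1.94 with the drug on the log2 scale, and ACTL6A, another, by 0.74, and the hairpin values of -0.087 and -0.07 did not pass. Of 72 kept nuclear genes of oxidative phosphorylation, 60 fell with the drug (median -0.49) and 42 rose with the hairpin (median 0.16), with the drug effect the lower in 65. NDUFB4, of complex I, changed by -1.0 and 0.16, and COX5A, of complex IV, by -0.83 and 0.23. Of 13 mitochondrially encoded mRNAs, 10 fell with the drug and 8 rose with the hairpin. Together they made up 13.7% ± 0.45 of TPM with the drug against 15.5% ± 0.13 untreated, and 18.5% ± 0.24 with the ARID2 hairpin against 17.2% ± 0.37 in the control knockdown (SD, n = 3 each). With mitochondrial mRNA removed, the median difference of the nuclear genes was -0.62, beside -0.58 with it kept. In glycolysis LDHA, which makes lactate, averaged 132 ± 4.43 TPM with pomalidomide and 496 ± 10.2 TPM without it, and 241 ± 9.1 TPM with the ARID2 hairpin and 329.8 ± 12.1 TPM in the control knockdown (SD, n = 3 each).

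**Figure D4:**
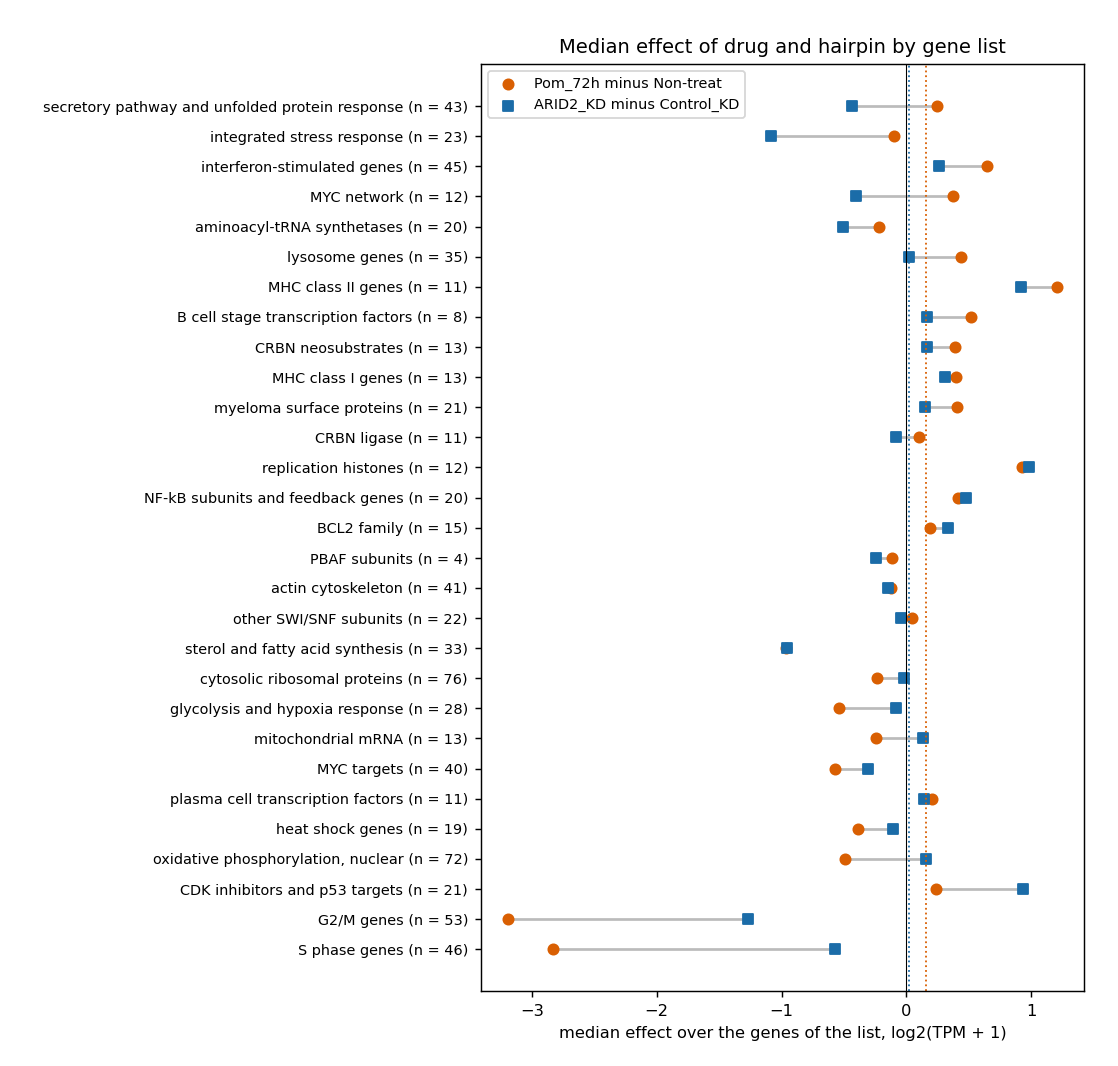
The median log2(TPM + 1) effect over the kept genes of each list is shown for the drug (Pom_72h minus Non-treat, circles) and the hairpin (ARID2_KD minus Control_KD, squares), ordered by the median difference, with dotted lines at the medians of all genes (0.15 and 0.02). Sterol and fatty acid synthesis has nearly equal medians (-0.96 and -0.95), the G2/M and S phase lists reach far lower with the drug, and secretory genes lie on opposite sides of 0.

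The remaining lists were mixed. Over all genes tested, 48.1% rose and 31.6% fell with the drug, and 33.1% rose and 29.2% fell with the hairpin. Of 11 plasma cell transcription factors, 6 rose and 4 fell with the drug, and 7 rose and 4 fell with the hairpin. Of 8 B cell stage factors, 5 rose and 1 fell with the drug, and 4 rose and 2 fell with the hairpin. Of 13 MHC class I genes, 9 rose and 3 fell with the drug, and 7 rose and 4 fell with the hairpin. Of 21 myeloma surface protein genes, 14 rose and 6 fell with the drug, and 11 rose and 6 fell with the hairpin. Heat shock genes fell in 13 and rose in 6 of 19 with the drug, and fell in 9 and rose in 4 with the hairpin. Genes of glycolysis and the hypoxia response fell in 19 and rose in 6 of 28 with the drug. With the hairpin 12 of these fell and 7 rose. Cytosolic ribosomal protein genes fell in 61 of 76 with the drug (median -0.24, or -0.40 with median-of-ratios scaling), whereas with the hairpin 20 rose and 27 fell, with a median near 0 whose sign depended on the scaling. Genes of the actin cytoskeleton rose in 12 and fell in 21 of 41 with the drug, and rose in 8 and fell in 21 with the hairpin. The BCL2 family rose in 9 and fell in 3 of 15 with the drug, and rose in 8 and fell in 3 with the hairpin. Genes of the cereblon ligase rose in 5 and fell in 4 of 11 with the drug, and rose in 1 and fell in 5 with the hairpin, the median drug effect turning from 0.10 to -0.051 with the median of ratios. SWI/SNF subunits outside PBAF rose in 9 and fell in 10 of 22 with the drug, and rose in 8 and fell in 5 with the hairpin, the median drug effect turning from 0.041 to -0.12 with the median of ratios.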

How the data were processed

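Messenger RNA of MM.1S cells was sequenced from TruSeq RNA v2 libraries, per the labels' protocols, in 21 libraries of 7 groups. The authors deposited 1 table of TPM for 17691 gene symbols. The build is hg38, per the submitters' processing notes. The aligner, the quantifier and the annotation were not given in the sources used here. TPM keeps no depth, so the depth per library is unknown and low genes carry an unknown counting error. Listed genes summed to 953886 to 968652 TPM per library, and 3.13% to 4.61% of the total lies in features not listed. TPM is a share, so one gene's fall can come with the rise of others.

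Values were taken as log2(TPM + 1), and a gene was kept if 3 or more libraries reached 1 TPM. One linear model with a mean for each of the 7 groups was fitted over all 21 libraries with limma 3.58.1 in R 4.3.3, with a trended empirical Bayes prior, two-sided, and Benjamini-Hochberg adjustment over 12559 genes. Fold changes on this scale understate those of low genes. The fit was tested on simulated data. The deposited values were used without added scaling, and the alternatives changed the pseudocount, filter, scaling, mitochondrial mRNA, libraries fitted, variance trend, replicate block, minimum fold and each single library. Replicate numbers do not pair the samples: deviations of same-numbered libraries correlated between -0.119 and 0.0417 over 18 pairs.

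The comparison, the 35 gene lists and the tests were chosen with earlier results of these data known, and no list was tested. Named genes were ARID2, PBRM1, BRD7, IKZF1, IKZF3, CRBN, IRF4 and MYC, the first 6 of each class with a mean of at least 5 TPM in the highest group and no overlap of libraries in the called effects (ranked by the smaller effect for shared and opposed genes, by the difference for split genes), and up to 4 members per list with the smallest p of the difference. Families of near-identical genes (histone, sulfotransferase, late envelope, KLRC, TMEFF1 and TMSB15 genes) were passed over in the ranking, decided when it was seen. Some genes that the rule named are not reported here. Other genes are said to be chosen after their values were seen. Promoters came from the RefSeq table of GRCh38.p14, matched by symbol for 9755 genes, and gene positions from GENCODE 29, which matched 17494 symbols. Tables and figures were made with Python 3.11.15, pandas 2.3.3, numpy 2.4.6 and matplotlib 3.10.9.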

Additional observations from a re-analysis of the deposited data

How the results depend on the processing

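Counts of passing genes and of every class stayed within 1.5 times of the main value under the pseudocount, filter, scaling, trend, 12-library and mitochondrial alternatives, except the genes opposed with the drug up, which numbered 245 with a pseudocount of 0.1 against 146. Asking for at least 2-fold left 79 shared up, 188 shared down, 25 opposed with the drug up, 8 opposed with the drug down, 815 drug-split up, 566 drug-split down, 68 knockdown-split up and 112 knockdown-split down. Asking for no minimum size gave 2644 shared up, 1857 shared down, 1201 opposed with the drug up, 834 opposed with the drug down and 491 knockdown-split up. Leaving out 1 library gave 8429 to 8565 genes for the difference (4893 to 5004 higher, 3508 to 3598 lower), 9661 to 10019 for the drug (5837 to 6051 up, 3816 to 3968 down) and 7237 to 7845 for the hairpin (3805 to 4174 up, 3370 to 3671 down). By class it gave 459 to 490 shared up, 521 to 536 shared down, 137 to 151 and 79 to 88 opposed with the drug up and down, 1767 to 1811 and 944 to 981 drug-split up and down, and 248 to 270 and 350 to 364 knockdown-split up and down. With the replicate block, 8700 differences passed (against 8731), and no class moved by over 1.5 times. The replicate numbers are only shared labels here, since no pair of same-numbered libraries correlated over 0.1. Median-of-ratios scaling moved the median difference of all genes from 0.11 to -0.0054, and the share of called differences that were higher from 58.2% to 49.1%, and left 380 of the 479 shared up and all 534 shared down genes in their class. No effect of a named gene that passed in the main fit or in an alternative had the opposite direction in the other. Calls that at least 1 alternative lost were the drug calls of BRD7, CRBN, CREG1, GADD45A, HID1, IKZF3 and PSPH, the hairpin calls of BRD7, CIITA, HSD11B1, IKZF1, MYB and PCDH12, and the differences of CRBN, MYC and SCD, and the cause was not tested. Depth is unknown, so what depth limits cannot be stated, and low genes near 1 TPM such as CD80 and LGALS3BP in their control libraries carry an unknown counting error.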
